A study of Mus musculus with 2 samples.

Results

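The Cyp3a subfamily was followed in mouse liver as 7 genes, Cyp3a11, Cyp3a13, Cyp3a16, Cyp3a25, Cyp3a41a, Cyp3a44 and Cyp3a59, taken from a deposited table of 34556 distinct gene symbols by their symbols alone. The table lists 95 cytochrome P450 symbols made of Cyp, a number, letters and a number, with or without a final letter. P450 genes below are those 95, and any P450 gene with another form of symbol is left out. Of the 95, 2, Cyp3a41b and Cyp3a57, belong to the same subfamily without being members of the set. One library came from liver of wild type (WT) BALB/c mice and 1 from liver of BALB/c mice labelled SRSF2-KO, genotype SRSF2-/-, in which the gene of the splicing factor SRSF2 was deleted in the liver, both at 5 months of age and sequenced on a HiSeq2000. The sources used here give neither the sex nor the number of the animals, nor the line that drove the deletion. With 1 library per genotype there were no replicates. No difference could therefore be tested, and every statement compares these 2 libraries.

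Cytochromes P450 are heme enzymes of the endoplasmic reticulum that oxidise lipophilic compounds with electrons passed on by NADPH cytochrome P450 reductase. The CYP3A enzymes are the broadest of them in substrate range and handle steroids, bile acids and many drugs. In liver their genes respond to the nuclear receptors PXR and CAR, which act as heterodimers with RXR, and their basal level depends on HNF4A and other hepatocyte factors. In mice Cyp3a11 is the main hepatic enzyme and the one most often read as a PXR response, whereas Cyp3a41a and Cyp3a44 are known as female-predominant and Cyp3a16 as a gene of fetal and young liver.

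The values are FPKM, the number of sequenced fragments corrected by the authors for the length of a transcript and the depth of a library. Ratios are given as log2((SRSF2-KO + 1)/(WT + 1)), so values below 0 stand for a lower level in the SRSF2-KO-labelled library. Spacing of the lowest FPKM values gave an estimated depth of 24400000 fragments for the SRSF2-KO-labelled library and 19400000 for the WT-labelled library. Intervals below are 95% exact (Clopper-Pearson) intervals built on read numbers estimated from those depths. They cover counting error only and say nothing of differences between animals. Srsf2 itself, the targeted gene, was at 45.3 FPKM in the SRSF2-KO-labelled library and at 38.2 FPKM in the other, so the label is not borne out by the level of its own RNA. The table does not show which part of that gene was removed. Of 12 hepatocyte markers 11 were above 0 in both libraries and Alb, the albumin gene, was listed at 0 in both, which shows that an exact 0 in this table need not mean an absent transcript.

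By sequence the subfamily falls into 2 groups and a single gene. In a global alignment of the longest coding sequences of GENCODE M21, Cyp3a11, Cyp3a16, Cyp3a41a, Cyp3a41b and Cyp3a44 matched each other at 92.4% to 99.9% of aligned positions. Cyp3a25, Cyp3a57 and Cyp3a59 matched each other at 93.9% to 97.5%. Every pair across these 2 groups, and every pair with Cyp3a13, lay between 74.5% and 76.8%. All 9 genes have 13 exons in the transcript used. In the RefSeq gene order all 9 lie on chromosome 5. Cyp3a13 is separated from the others by 121 protein-coding genes, and the remaining 8 form a cluster with no other protein-coding gene inside it, in the order Cyp3a57, Cyp3a16, Cyp3a41b, Cyp3a41a, Cyp3a44, Cyp3a11, Cyp3a25 and Cyp3a59. Cyp3a25 on the minus strand and Cyp3a59 on the plus strand stand head to head at one end of this cluster.

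**Figure D1:**
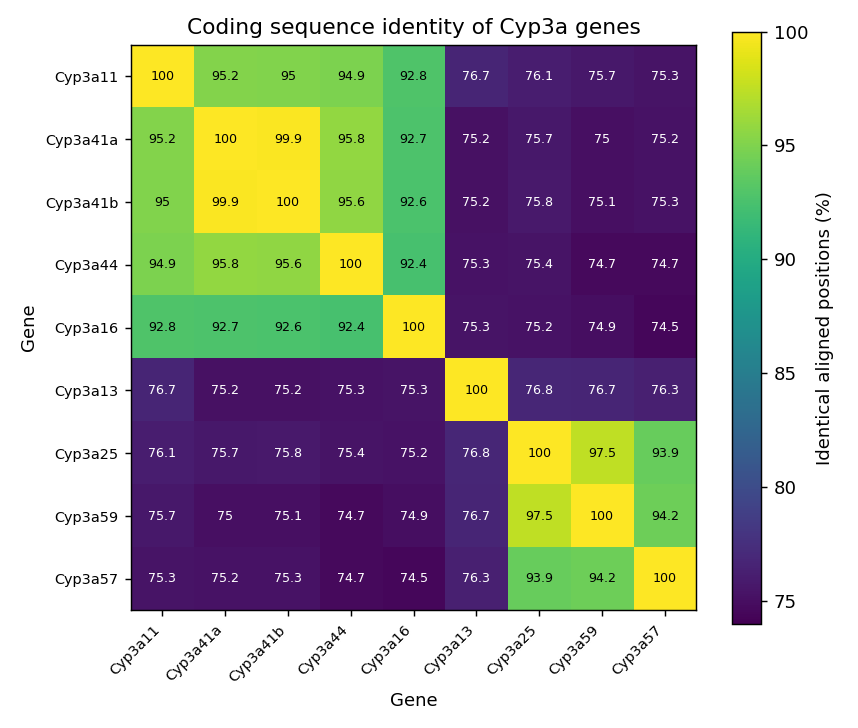
Coding sequence identity of the 9 Cyp3a genes in the table, as percent of aligned positions (colour and printed value), with 1 gene per row and column. The block around Cyp3a11 lies at 92.4% to 99.9%, the block of Cyp3a25, Cyp3a59 and Cyp3a57 at 93.9% to 97.5%, and all other pairs at 74.5% to 76.8%.

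Promoter sequences of all 7 members were found in the RefSeq table for GRCm38.p6, which covers 250 bases before to 50 bases after each transcription start. The deposited values were made on another build, mm9, and in another strain, so the sequences serve as reference sequence only. Those of 4 members are shown, chosen by the levels reported below. Whether these sequences bear on the levels was not tested. Cyp3a25 and Cyp3a59 had nearly the same ratio between the libraries, and Cyp3a11 and Cyp3a44 are close in sequence but far apart in level. Cyp3a25 has 2 listed starts a base apart, and the first is printed. Capitals mark every match, on either strand, to 3 motifs, AGGTCA, CAAAGGTCA and CAAAGTCCA. AGGTCA is the core bound by many nuclear receptors, and CAAAGGTCA is AGGTCA preceded by CAA. CAAAGTCCA is the core preferred by HNF4A. The CAAAGGTCA motif was chosen after the sequences were read. Sequences run 5′ to 3′ on the strand of the gene.
Cyp3a11, chr5:145879805-145880104, minus strand: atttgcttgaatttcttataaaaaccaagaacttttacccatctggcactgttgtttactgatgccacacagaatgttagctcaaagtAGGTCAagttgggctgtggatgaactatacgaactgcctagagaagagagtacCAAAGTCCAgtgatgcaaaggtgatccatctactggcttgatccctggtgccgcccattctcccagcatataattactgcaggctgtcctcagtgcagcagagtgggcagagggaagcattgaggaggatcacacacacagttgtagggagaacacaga
Cyp3a44, chr5:145805825-145806124, minus strand: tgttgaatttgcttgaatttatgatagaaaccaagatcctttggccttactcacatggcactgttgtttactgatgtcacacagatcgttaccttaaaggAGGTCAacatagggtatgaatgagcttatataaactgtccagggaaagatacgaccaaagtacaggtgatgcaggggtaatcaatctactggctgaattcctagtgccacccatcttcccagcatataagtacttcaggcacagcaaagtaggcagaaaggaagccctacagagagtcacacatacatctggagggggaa
Cyp3a25, chr5:146009569-146009868, minus strand: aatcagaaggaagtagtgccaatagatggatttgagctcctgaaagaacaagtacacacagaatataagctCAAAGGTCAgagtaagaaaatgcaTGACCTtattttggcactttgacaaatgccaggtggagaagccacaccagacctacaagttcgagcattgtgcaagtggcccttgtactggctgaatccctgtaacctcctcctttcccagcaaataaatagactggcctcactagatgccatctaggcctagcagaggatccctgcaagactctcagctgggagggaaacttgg
Cyp3a59, chr5:146079008-146079307, plus strand: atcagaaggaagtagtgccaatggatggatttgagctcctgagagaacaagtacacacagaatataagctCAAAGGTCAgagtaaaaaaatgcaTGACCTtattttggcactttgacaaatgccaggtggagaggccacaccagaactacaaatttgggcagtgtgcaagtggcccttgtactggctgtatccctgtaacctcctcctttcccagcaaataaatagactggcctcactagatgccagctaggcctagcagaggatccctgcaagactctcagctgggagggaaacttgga

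The promoters of Cyp3a25 and Cyp3a59 were identical at 95.7% of aligned positions. Both hold CAAAGGTCA, beginning 179 bases upstream of the start in Cyp3a25 and 180 bases upstream in Cyp3a59, followed by AGGTCA on the opposite strand. The promoters of Cyp3a11 and Cyp3a44 were identical at 71.2%. Cyp3a11 holds AGGTCA beginning 162 bases upstream and CAAAGTCCA beginning 109 bases upstream, while Cyp3a44 holds AGGTCA beginning 150 bases upstream and no match to CAAAGTCCA. Cyp3a13 held no match to any of the 3 motifs in its window. Over the 9 Cyp3a promoters, AGGTCA was present in 5, CAAAGGTCA in 3 and CAAAGTCCA in 4. The motifs did not follow the levels. CAAAGTCCA was also present in Cyp3a16, Cyp3a41a and Cyp3a41b, and CAAAGGTCA in Cyp3a57, all under 1 FPKM in both libraries. Among 27025 promoters of the same length, 1 per gene, the shares were 16.04%, 0.466% and 0.477%. Near-identical copies are not separate observations, and a match describes letters in this window and not a bound site.

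All 4 members expressed at 1 FPKM or more were lower in the SRSF2-KO-labelled library. Cyp3a25 and Cyp3a59, of one sequence group, were 3.04-fold and 3.10-fold lower, while Cyp3a11 and Cyp3a13 were 1.505-fold and 1.63-fold lower. Each of the 4 was above 1 FPKM in both libraries, so none was counted through 1 library alone. Of these 4, 2 were at least 2-fold lower and 0 at least 2-fold higher. Across the table, 11428 rows reached 1 FPKM in one library or both, and of those 3.22% were at least 2-fold lower and 5.49% at least 2-fold higher. The share with a ratio below 0 was 53.9%. The 2-fold shares were 1.91% and 10.8% with both libraries brought to equal totals (TPM). The other 3 members, Cyp3a16, Cyp3a41a and Cyp3a44, lay under 1 FPKM in both libraries.

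Cyp3a11, the main CYP3A enzyme of mouse liver, was at 1116 FPKM in the SRSF2-KO-labelled library and at 1680 FPKM in the WT-labelled library. It ranked as the second most abundant of the 95 P450 genes in the former and as the third in the latter. The WT-labelled library was 1.505-fold higher, with an interval of 1.49 to 1.52 from an estimated 58946 and 70526 reads, and the log2 ratio was -0.59. At this depth counting error is negligible beside the unknown spread between animals, which these libraries cannot show. In bulk liver, fewer hepatocytes and less RNA per hepatocyte cannot be told apart.

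Cyp3a25, a constitutive CYP3A enzyme of liver and gut, was at 118.7 FPKM in the SRSF2-KO-labelled library against 361 FPKM in the WT-labelled library. This 3.04-fold difference, with an interval of 2.95 to 3.14 and a log2 ratio of -1.60, was the largest among the members by that ratio. Cyp3a25 ranked 16 of the 95 P450 genes by level in the SRSF2-KO-labelled library and 11 in the other.

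Cyp3a59, the neighbour and close copy of Cyp3a25, was much scarcer, at 3.79 against 11.7 FPKM. It was 3.10-fold lower in the SRSF2-KO-labelled library, with an interval of 2.59 to 3.74 from an estimated 167 and 412 reads. Its log2 ratio of -1.41 is drawn toward 0 by the pseudocount, and was -1.61 with a pseudocount of 0.1, the same as for Cyp3a25. Cyp3a59 stood at 3.19% of the Cyp3a25 level in the SRSF2-KO-labelled library and at 3.25% in the WT-labelled library. These percentages differed by less than counting error, since their quotient was 0.98 with a 95% interval of 0.82 to 1.18 (normal approximation on the log scale). Of the 50-base windows of the Cyp3a59 transcript 24.7% occur unchanged in that of Cyp3a25, so the reads of this pair can be confused. Whether the 3.79 and 11.7 FPKM were reads of Cyp3a59 or misplaced reads of Cyp3a25 was not tested.

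Cyp3a13, the member that lies apart both in sequence and on the chromosome and that is known chiefly from intestine, was at 38.0 against 62.2 FPKM. It was 1.63-fold lower in the SRSF2-KO-labelled library, with an interval of 1.55 to 1.72 and a log2 ratio of -0.69. None of its 50-base windows occurs unchanged in the transcripts used for the other Cyp3a genes. Whether its value depends on how copies were told apart was not tested. Its level relative to Cyp3a11 was 3.41% in the SRSF2-KO-labelled library and 3.70% in the WT-labelled library.

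**Figure D2:**
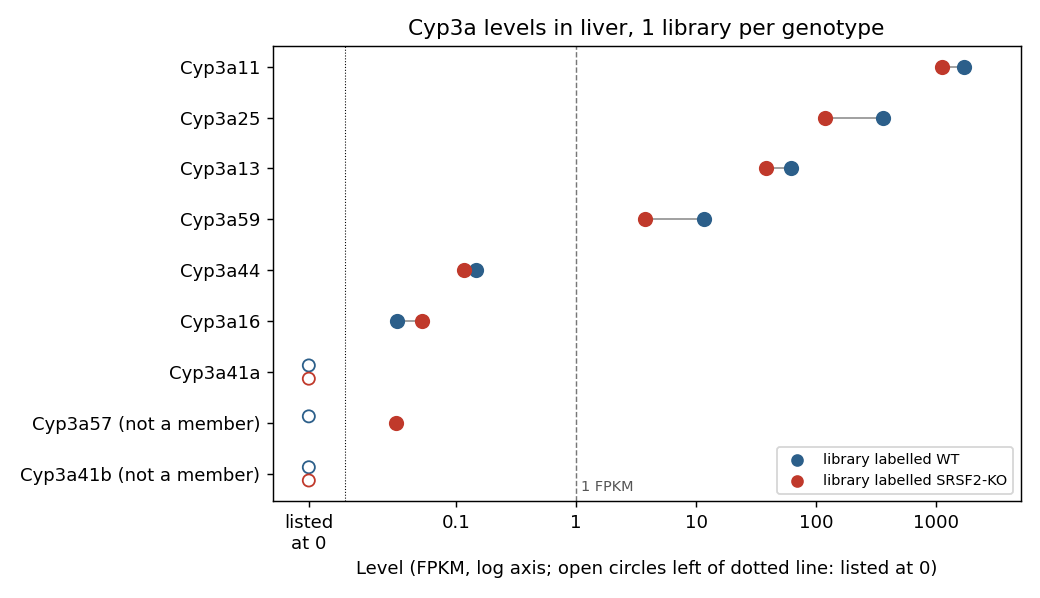
Level of each Cyp3a gene in FPKM on a log axis, with 1 point for the WT-labelled library and 1 for the SRSF2-KO-labelled library, joined by a line where both are above 0; open circles left of the dotted line are values listed at 0. Cyp3a11, Cyp3a25, Cyp3a13 and Cyp3a59 lie above 1 FPKM with the SRSF2-KO point on the lower side, and the remaining genes lie under 1 FPKM or at 0.

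The female-predominant and early-life members were at the edge of detection. Cyp3a44 was at 0.116 FPKM in the SRSF2-KO-labelled library and 0.146 FPKM in the WT-labelled library, which corresponds to an estimated 5.05 and 5.06 reads. Cyp3a16 was at 0.0525 and 0.0327 FPKM, an estimated 1.98 and 0.98 reads. No difference was detectable for either gene, with intervals of the ratio of SRSF2-KO to WT from 0.18 to 3.45 for Cyp3a44 and from 0.083 to 93.8 for Cyp3a16. Cyp3a41a was listed at 0 in both libraries, as was its copy Cyp3a41b. Their coding sequences match at 99.9% of positions and 93.7% of the 50-base windows of Cyp3a41a recur in Cyp3a41b, and given the 0 for Alb these zeros may be failed estimates as well as absent RNA. Cyp3a57 was at 0.0319 FPKM in the SRSF2-KO-labelled library, an estimated 1.41 reads, and listed at 0 in the other.

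Genes that mark the sex of the animal were read beside these low values. Both libraries held RNA of the 4 Y-linked genes Ddx3y, Uty, Kdm5d and Eif2s3y, with Eif2s3y at 19.2 against 22.4 FPKM and Ddx3y at 9.21 against 10.6 FPKM. Xist, the RNA of the inactive X chromosome, was at 0.005 against 0.0063 FPKM. Low Cyp3a44 and Cyp3a16 thus came with male-type sex chromosome RNA in both libraries. Other female-biased liver genes were measured for 5 of 15, of which 3 were at least 2-fold lower and 1 at least 2-fold higher. Of all measured rows, 3.22% were at least 2-fold lower and 5.49% at least 2-fold higher. Cyp2b9 was at 0.049 against 18.3 FPKM and Acot3 at 0.302 against 8.56 FPKM, whereas Ntrk2 was at 18.3 against 0.679 FPKM and Cyp2a4 at 10.4 against 6.24 FPKM. Cyp2b9 and Acot3 reached 1 FPKM in the WT-labelled library alone, and Ntrk2 in the SRSF2-KO-labelled library alone. For each of these genes, being measured and differing at least 2-fold thus rest on the same high value. The remaining gene at least 2-fold lower was above 1 FPKM in both libraries, at 11.1 against 58.3 FPKM. The 15 male-biased genes were all measured and went both ways, 3 at least 2-fold lower and 4 at least 2-fold higher, from Mup7 (-3.26) and Slco1a1 (-2.36) to Ugt2b38 (1.29) and Mup20 (1.71). Of 8 genes of growth hormone and STAT5 signalling, which sets the sex bias of liver P450 genes, Igf1 (-0.73) and Ghr (-0.70) were lowest and Stat5a (0.74) and Socs2 (1.91) highest. Socs2 reached 1 FPKM in the SRSF2-KO-labelled library alone (6.33 against 0.949 FPKM).

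Summed over the 7 members, Cyp3a RNA stood at 1277 FPKM in the SRSF2-KO-labelled library and at 2115 FPKM in the WT-labelled library, a 1.66-fold difference and a log2 ratio of -0.73 with a counting standard error of 0.0074. The make-up of this sum differed. Cyp3a11 provided 87.4% of it in the SRSF2-KO-labelled library and 79.4% in the WT-labelled library, and Cyp3a25 provided 9.29% and 17.1%. Cyp3a13 provided 2.98% and 2.94%, and Cyp3a59 0.297% and 0.554%. Relative to Cyp3a11, Cyp3a25 was at 10.6% in the SRSF2-KO-labelled library and 21.5% in the WT-labelled library. The latter is 2.02 times the former, with a counting interval of 1.96 to 2.09 (normal approximation on the log scale). Shares and ratios within a library do not change when a whole library is rescaled.

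**Figure D3:**
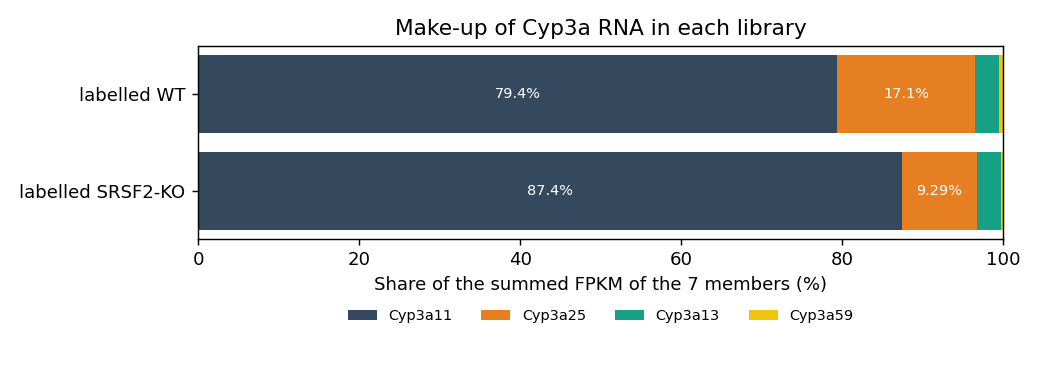
Share of each member in the summed FPKM of the 7 Cyp3a members, in percent, with 1 bar per library; Cyp3a16, Cyp3a41a and Cyp3a44 are too scarce to show. Cyp3a11 takes 87.4% in the SRSF2-KO-labelled library against 79.4% in the WT-labelled library, and Cyp3a25 takes 9.29% against 17.1%.

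The size of these differences depends on how the libraries are scaled, but their direction did not in the alternatives run. With both libraries brought to equal totals (TPM) or scaled so that rows other than the 50 most abundant had equal sums, the median log2 ratio of all measured rows moved from -0.04 to 0.28 and 0.21. Each rescaling multiplies every value of a library by the same factor, so distances from that median are nearly fixed by construction. They are given as positions only and do not test the scaling. Against that median Cyp3a11 lay at -0.55 as deposited and at -0.52 and -0.51 after the rescalings. Cyp3a25 lay at -1.56, -1.54 and -1.52, Cyp3a13 at -0.66, -0.64 and -0.62, and Cyp3a59 at -1.37, -1.46 and -1.37.

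Among P450 genes as a whole the Cyp3a members did not have the lowest ratios. Of 55 other measured P450 genes, 43 had ratios below 0, 18 (32.7%) were at least 2-fold lower and 1 was at least 2-fold higher. Over all measured rows 53.9% lay below 0, 3.22% were at least 2-fold lower and 5.49% at least 2-fold higher. The higher gene (4.41 against 0.346 FPKM) reached 1 FPKM in the SRSF2-KO-labelled library alone, and some of the 18 in the WT-labelled library alone. The median log2 ratio of the other P450 genes was -0.71, and that of the 4 measured Cyp3a members was -1.05. Placed among all 59 measured P450 genes from the lowest ratio up, Cyp3a25 was number 11, Cyp3a59 number 13, Cyp3a13 number 32 and Cyp3a11 number 35. The summed FPKM of the other P450 genes was 2.22-fold lower in the SRSF2-KO-labelled library, more than the 1.66-fold of Cyp3a. Cyp3a accordingly made up 15.7% of all P450 FPKM there against 12.2% in the WT-labelled library. Of 10 Cyp2c genes, another large drug-metabolising subfamily, 6 were at least 2-fold lower, and their sum was 3.11-fold lower. The 2 measured Cyp2b genes, the classic CAR target Cyp2b10 and the sex-biased Cyp2b9, were both at least 2-fold lower, at log2 ratios of -3.06 and -4.20. Cyp2b9 was counted as measured through the WT-labelled library alone. The 4 measured Cyp3a members spanned 1.01 log2 units from lowest to highest. The span was 3.19 for the 10 Cyp2c genes and 1.14 for the 2 Cyp2b genes. A span tends to grow with the number of genes, so these sets are not alike in this measure.

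Cyp3a11 stood one rank higher by abundance in the SRSF2-KO-labelled library, where Cyp2c29 ranked lower than in the other. Cyp2e1, the ethanol-metabolising P450, led in both libraries with 1987 against 5250 FPKM. Cyp2c29 stood second in the WT-labelled library at 1871 FPKM but ranked 7 at 330 FPKM in the SRSF2-KO-labelled library, where Cyp3a11 at 1116 FPKM was next to Cyp2e1. Cyp2a5 (486 against 779 FPKM) and Cyp1a2 (474 against 776 FPKM) came directly behind Cyp3a11 in both, and Cyp2f2 at 393 FPKM was next in the SRSF2-KO-labelled library. By closeness of the log2 ratio over these 2 libraries, the P450 genes most like the summed Cyp3a level of -0.73 were Cyp4f15 (-0.73), Cyp1a2 (-0.71) and Cyp2d22 (-0.75).

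**Figure D4:**
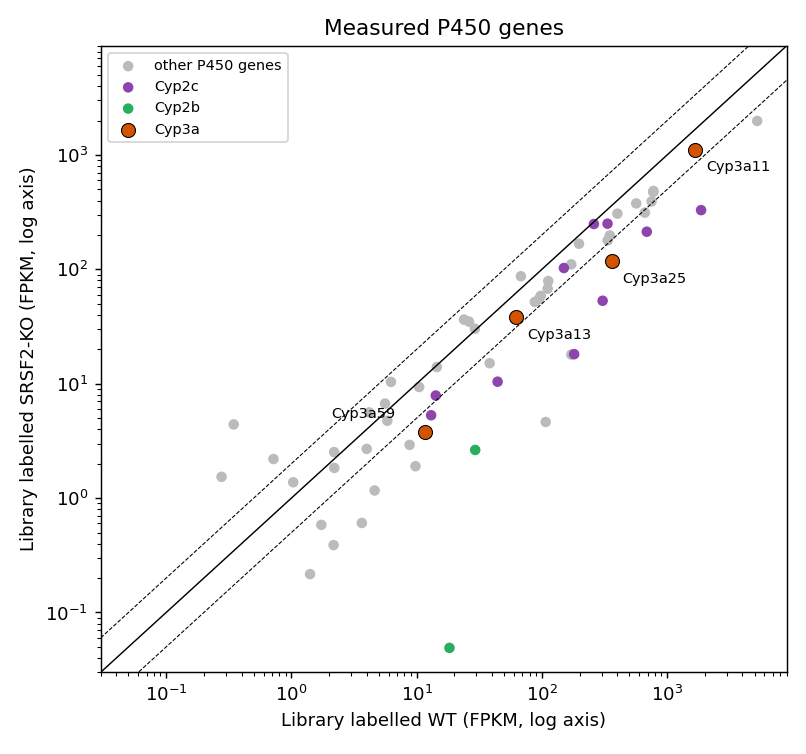
Levels of the 59 measured P450 genes in the WT-labelled library (horizontal) and the SRSF2-KO-labelled library (vertical), in FPKM on log axes, with 1 point per gene; the solid line marks equal levels and the dashed lines a 2-fold difference. Cyp3a25 and Cyp3a59 lie below the lower dashed line, and Cyp3a11 and Cyp3a13 between it and the solid line.

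The genes of the receptors known to drive Cyp3a genes were themselves lower in the SRSF2-KO-labelled library. Nr1i2, which codes for PXR, was at 18.0 against 28.9 FPKM (log2 ratio -0.65), and Nr1i3, which codes for CAR, at 30.1 against 61.9 FPKM (-1.01). Their partner gene Rxra was at 68.9 against 114 FPKM (-0.71), and Hnf4a at 100.1 against 133 FPKM (-0.41). Vdr, the vitamin D receptor gene that drives CYP3A in gut, lay under 1 FPKM in both libraries. Over the 20 measured regulators the median was -0.20, with 16 below 0, against 53.9% of all measured rows, and 3 at least 2-fold lower. Under either the TPM or the equal-sum rescaling 8 lay below 0 and 1 was at least 2-fold lower. The lowest were Cebpb (-1.41) and Cebpd (-1.15), transcription factors of the acute phase, while the corepressor gene Nr0b2 was at 0.13. The regulator median turned to 0.14 and 0.08 under these rescalings, beside 0.28 and 0.21 for all measured rows. The share of all rows below 0 was not computed after rescaling. Hnf4a came near 0 (-0.06 and -0.12), whereas Nr1i2 (-0.32 and -0.38), Nr1i3 (-0.68 and -0.73) and Rxra (-0.37 and -0.43) stayed below 0.

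Other targets of PXR and CAR did not share one direction with Cyp3a11 and Cyp3a25. Of 21 genes, 10 were at least 2-fold lower, 2 were at least 2-fold higher, and the median log2 ratio was -0.68. Among all measured rows the shares were 3.22% and 5.49%. Under the TPM and equal-sum rescalings 7 and 8 of the 21 were at least 2-fold lower, with medians of -0.33 and -0.40. Cyp2c37 (-3.25) and Cyp2b10 (-3.06) were lowest, and the conjugation enzyme genes Sult1e1 (1.40) and Gsta1 (2.32) were highest. Sult1e1 reached 1 FPKM in the SRSF2-KO-labelled library alone. P450 enzymes also need electrons and heme. Por, the reductase that serves CYP3A enzymes, was at 98.7 against 308 FPKM, a log2 ratio of -1.63. That of Cyp3a25 was -1.60, while Cyp3a11 was at -0.59, Cyp3a13 at -0.69 and the summed Cyp3a level at -0.73. Of the 7 measured redox partners 5 lay below 0 as deposited, beside 53.9% of all measured rows. Under either rescaling 4 lay below 0, with medians of -0.13 and -0.18 beside 0.28 and 0.21 for all measured rows. Fdx1 (-0.73) was next lowest after Por, and Fdxr (0.03) and Cyb5r3 (0.06) were highest. Of 12 genes of heme synthesis and breakdown 9 lay below 0, beside the same 53.9%, with a median of -0.20. Under the TPM and equal-sum rescalings 3 and 5 lay below 0. The medians were then 0.13 and 0.07, beside 0.28 and 0.21 for all measured rows. Cpox (-1.02) and Alas1, the rate-limiting step (126 against 225 FPKM, -0.84), were lowest, and Uros (0.46) and Ppox (0.16) highest.

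**Figure D5:**
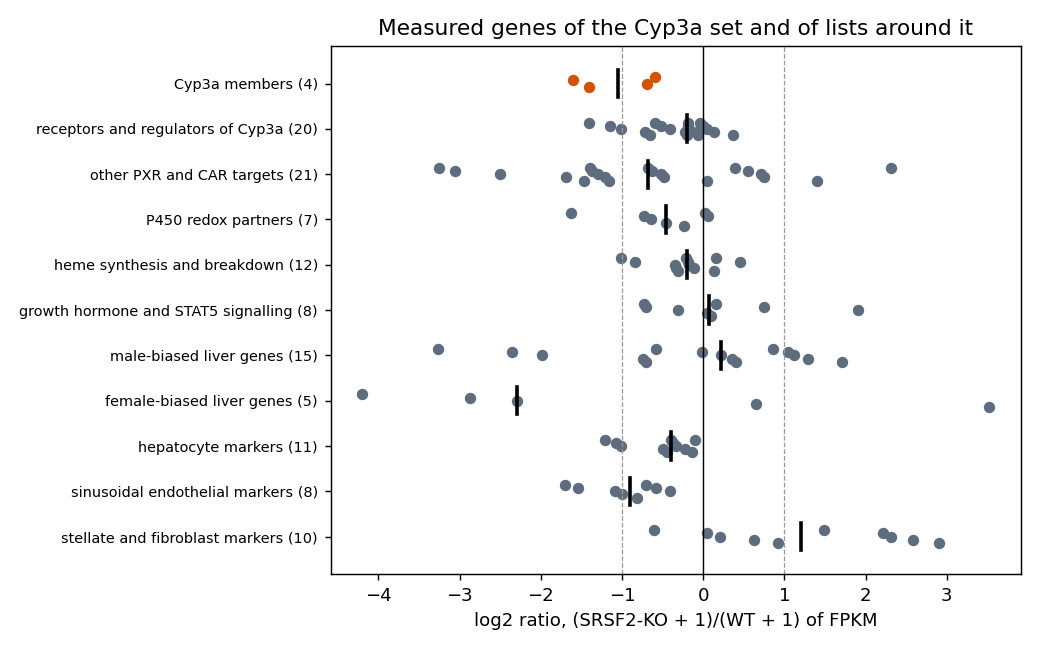
Log2 ratios of the measured genes of the Cyp3a set and of 10 lists, with 1 point per gene, a thick bar at each median, the number of measured genes in brackets and dashed lines at a 2-fold difference. The 4 Cyp3a members lie between -1.60 and -0.59, while the regulator list has a median of -0.20 and the stellate and fibroblast markers one of 1.20.

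Markers of liver cell types differed in the same libraries as Cyp3a. All 11 measured hepatocyte markers lay below 0, beside 53.9% of all measured rows, with a median of -0.40. Under the TPM and equal-sum rescalings 7 and 8 lay below 0, with medians of -0.05 and -0.11. All measured rows then had medians of 0.28 and 0.21. The summed level of the hepatocyte markers was 27865 against 37908 FPKM. Tat (-1.21) and Ttr (-1.07) were lowest and Apob (-0.10) and Ahsg (-0.14) highest. The markers of stellate cells and fibroblasts were higher in the SRSF2-KO-labelled library for 9 of 10 genes, summing to 208.8 against 103.8 FPKM, and were led by Col1a1 (2.91) and Lum (2.58), with Lrat (-0.60) and Reln (0.04) lowest. Col1a1 reached 1 FPKM in the SRSF2-KO-labelled library alone (11.1 against 0.622 FPKM). All 8 sinusoidal endothelial markers lay below 0, summing to 42.4 against 96.0 FPKM, from Oit3 (-1.71) and Kdr (-1.54) to Lyve1 (-0.41) and Pecam1 (-0.58). Of 8 measured Kupffer cell and macrophage markers 7 lay below 0 (81.0 against 134 FPKM), from Timd4 (-1.47) and Cd5l (-1.14) to Marco (-0.13) and Cd68 (0.88). Only 5 of these lay below 0 under either rescaling. The median of the 8 markers moved from -0.69 to -0.43 and -0.45, beside 0.28 and 0.21 for all measured rows. Timd4 reached 1 FPKM in the WT-labelled library alone. Of 5 measured bile duct markers 4 lay above 0 (287 against 30.4 FPKM over the list, of which Spp1 gave 266 against 21.9 FPKM), from Krt19 (-0.56) to Cldn7 (2.03) and Spp1 (3.54). Krt19 reached 1 FPKM in the WT-labelled library alone. The 2 measured lymphocyte and 3 measured neutrophil markers lay above 0. Both lymphocyte markers reached 1 FPKM in the SRSF2-KO-labelled library alone. Over all 8 listed lymphocyte genes the summed level was 5.89 against 2.46 FPKM, and over all 6 listed neutrophil genes 25.8 against 8.05 FPKM. Since Cyp3a13 and Cyp3a25 are also made in gut, intestine markers were read too: Alpi, Muc2 and Sis were listed at 0 in both libraries, and the list summed to 29.7 against 70.5 FPKM, nearly all of it Fabp2 (26.6 against 65.4 FPKM). The part of any of these cell types in the Cyp3a ratios was not tested.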

How the data were processed

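The authors deposited 1 table of FPKM (per the file headers and name), with 1 column per library. Per the submitters' processing notes, Bowtie 0.12.2 and genome build mm9 were used; no quantification program, annotation or strandedness is given in the sources used here. Columns were matched to libraries by name. Each member had 1 row; for repeated symbols the row with the highest mean was kept. Ratios used a pseudocount of 1 for rows reaching 1 FPKM in one library or both, and 2-fold describes size only, since no test was possible. Named genes were all Cyp3a symbols, the 2 highest and 2 lowest of each list, the 5 most abundant P450 genes of each library and the 3 nearest in ratio; single regulators and partners were also named. Some genes this rule selects are not reported here. Members and lists were chosen with earlier results of these data known.

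Depth was fitted to low values of genes with 1 GENCODE M21 transcript of 1000 to 8000 bases (length offset 180 bases). Of values worth 1 to 3 reads, 71.6% and 74.9% in the SRSF2-KO-labelled and WT-labelled libraries came within 0.1 of a whole read. Estimated reads used the longest coding transcript. Scripts (Python 3.11.15, scipy 1.17.1, Biopython 1.88) were tested on simulated data.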

Additional observations from a re-analysis of the deposited data

How the results depend on the processing

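All 4 measured members stayed below 0 and 2 stayed at least 2-fold lower with pseudocounts of 0.1 and 3, 3 rescalings and summed rows; filters of 0 and 5 FPKM also left 2. Log2 ratios ranged from -0.59 to -0.24 for Cyp3a11, -0.71 to -0.36 for Cyp3a13, -1.61 to -1.25 for Cyp3a25 and -1.61 to -1.12 for Cyp3a59. The summed Cyp3a log2 ratio of -0.73 was -0.38 with equal totals (TPM) and -0.44 when rows other than the 50 most abundant were brought to equal sums. The construction of both raises the SRSF2-KO-labelled library against the other by 0.35 and 0.29 log2 units. Genes of the context lists at least 2-fold lower numbered 30 as deposited and 19 under either rescaling. Other P450 genes at least 2-fold lower numbered 18, and 13 to 20 over the alternatives. No paired analysis was possible because each genotype has 1 library. Depth limits Cyp3a16 and Cyp3a44, with under 6 estimated reads each, and the absence of replicates limits everything.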

Other observations

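Genes next to the Cyp3a cluster were read after the values of the members were seen. The 5 nearest measured protein-coding genes on each side of the cluster, in RefSeq order, had a median log2 ratio of -0.13 and ranged from -0.38 (Atp5j2) to 0.10 (Rpl21). Of these 10, 7 lay below 0, beside 53.9% of all measured rows, 0 were at least 2-fold lower and 0 at least 2-fold higher. Within the cluster itself the neighbours Cyp3a11 and Cyp3a25 differed from each other by 1.01 log2 units in the same ratio.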
